A study of Homo sapiens with 16 samples.

Results

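The RNA levels of 10 genes of the NF-κB pathway were followed in triple-negative breast cancer cell lines sorted for Wnt reporter activity. The genes were chosen by name: the subunit genes NFKB1, NFKB2, REL, RELA and RELB, and the IκB family genes NFKBIA and NFKBIZ. The others were the NF-κB-induced genes TNFAIP3, TNFAIP2 and BIRC3. The members are 10 of the 57820 gene IDs in the count tables, and all 10 passed the filter on low counts. Bulk RNA-Seq had been run on 16 libraries, made from 2 cell lines, 2 reporter states and 2 serum conditions. Each of the 8 groups held 2 biological replicates.

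MDA-MB-231 and MDA-MB-436 are human mesenchymal triple-negative breast cancer lines. According to the study's methods, the mutations of MDA-MB-231 include one of CDKN2A, and those of MDA-MB-436 one of BRCA1. All 8 groups carried the 7TGP vector, in which Tcf/Lef binding sites drive eGFP, together with a puromycin resistance cassette. Cells had been sorted for eGFP and expanded in repeated cycles into 1 eGFP-negative subline (7TGP-NEG) and 1 eGFP-positive subline (7TGP-POS) per cell line. Whether a subline is 1 clone is not given in the sources used here, and a comparison of POS with NEG therefore compares 2 expanded sublines of a line. The low serum groups (0.5% FBS) were collected after 3 days and the standard serum groups (10% FBS) after 6 days. RNA was depleted of ribosomal RNA in low serum and selected for polyadenylated transcripts in standard serum, according to the methods, whereas the labels name a single kit for both. Serum, days in culture and library preparation cannot be told apart, and their values are set side by side without a test.

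NF-κB is a family of dimeric transcription factors built from the products of the 5 subunit genes. NFKB1 and NFKB2 encode the precursors p105 and p100, which are processed to p50 and p52, and RELA (p65), REL (c-Rel) and RELB carry the transactivation domains. In resting cells, IκB proteins such as IκBα, the NFKBIA product, hold the dimers in the cytoplasm until IκB kinase marks them for degradation, while the noncanonical branch depends on NIK and on p100 processing. Several target genes act back on the pathway: NFKBIA replenishes its inhibitor, TNFAIP3 encodes the ubiquitin-editing enzyme A20, and BIRC3 encodes the ubiquitin ligase cIAP2.

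Promoter sequences of the members were read to show where NF-κB motifs lie. RefSeq windows of 300 bases around annotated gene starts (GRCh38.p14) were found for 9 of the 10 genes, and RELB was not matched. The κB consensus of 10 letters, searched on both strands, was present in 3956 of 35116 windows (11.3%), in 9 of the 14 windows of the members, and in at least 1 window of 7 of the 9 genes. The windows of RELA and TNFAIP2 held no match. The core letters ATCAAAG of the Tcf/Lef motif were present in 919 of all windows (2.6%) and in 0 of the 14. A match describes the letters only and was not tested as a binding site. The windows of the 3 feedback genes with the values given in most detail here are printed 5′ to 3′ along the gene, with κB matches in capitals. For TNFAIP3 (chr6:137867009-137867308, plus strand), 2 matches that do not overlap begin at positions -67 and -55 from the annotated start. For BIRC3 (chr11:102317234-102317533, plus strand), 2 matches begin at positions -199 and -135. For NFKBIA (chr14:35404700-35404999, minus strand), 1 match begins at position -81.
TNFAIP3: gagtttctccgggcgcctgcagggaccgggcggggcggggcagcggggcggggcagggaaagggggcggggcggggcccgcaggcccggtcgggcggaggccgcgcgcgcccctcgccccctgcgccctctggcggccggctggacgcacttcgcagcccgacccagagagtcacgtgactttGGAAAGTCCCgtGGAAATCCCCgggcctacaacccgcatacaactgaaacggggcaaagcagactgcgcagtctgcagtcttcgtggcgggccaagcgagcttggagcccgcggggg
BIRC3: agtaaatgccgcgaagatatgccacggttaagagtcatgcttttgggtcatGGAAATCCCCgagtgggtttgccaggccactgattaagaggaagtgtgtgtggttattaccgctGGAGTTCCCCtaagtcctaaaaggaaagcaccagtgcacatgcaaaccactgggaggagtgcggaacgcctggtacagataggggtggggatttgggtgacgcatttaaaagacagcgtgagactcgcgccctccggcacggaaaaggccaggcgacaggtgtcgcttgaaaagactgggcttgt
NFKBIA: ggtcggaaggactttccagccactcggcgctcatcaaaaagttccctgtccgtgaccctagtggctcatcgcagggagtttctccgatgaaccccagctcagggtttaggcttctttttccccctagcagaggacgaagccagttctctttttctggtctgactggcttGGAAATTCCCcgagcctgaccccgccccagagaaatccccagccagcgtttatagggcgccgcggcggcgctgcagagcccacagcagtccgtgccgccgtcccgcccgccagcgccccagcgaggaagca

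Library totals ranged from 27918418 to 32667756 counts in low serum and from 31827130 to 46044073 in standard serum, and the members held 221 to 22023 counts per library. The median SD of log2 CPM between replicates was 0.057 to 0.078 in 7 of the groups and 0.108 in the MDA-MB-436 POS libraries of standard serum, whose replicates stood further apart. The mesenchymal label was checked against markers: VIM was at 659 CPM or more in every library and CDH1 at 0.401 CPM or less, but CDH2 reached only 1.55 CPM in MDA-MB-231 and SPARC only 10.5 CPM in either line. Among the 6 epithelial markers, KRT8 was at 258 to 731 CPM and KRT18 at 116 to 371 CPM over both lines, and in MDA-MB-231 KRT19 was at 552 to 846 CPM and CLDN4 at 35.5 to 62.4 CPM. CDKN2A, mutated in MDA-MB-231, was at 0.267 CPM or less in its libraries and at 66.5 CPM or more in those of MDA-MB-436. Among the leukocyte markers, the T-cell gene CD3E did not exceed 0.0668 CPM, but PTPRC reached 9.31 CPM in MDA-MB-231. CD14 reached 6.95 CPM in MDA-MB-231 and 10.5 CPM in MDA-MB-436. The 6 leukocyte markers summed to 9.39 and 11.6 CPM in MDA-MB-231 7TGP-NEG and to 13.9 and 13.3 CPM in 7TGP-POS in low serum, and the 5 mesenchymal markers to 6314 and 6132 CPM in NEG and 3641 and 3648 CPM in POS, most of it VIM. In MDA-MB-436 the mesenchymal sum was higher in POS, at 1396 and 1397 CPM against 1065 and 1076 CPM in low serum and 1461 and 1511 CPM against 947 and 1009 CPM in standard serum, where the leukocyte sum was 4.73 and 5.90 CPM in POS against 9.15 and 9.91 CPM in NEG. The part of these markers in the results below was not tested.

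Levels of the subunit genes were compared with each other as TPM, which is scaled to gene length. NFKB2 was the most abundant subunit transcript in all 8 groups, from 65.8 ± 1.42 TPM (SD, n = 2) in MDA-MB-231 7TGP-NEG in low serum to 242 ± 17.3 TPM in MDA-MB-436 7TGP-POS with standard serum. REL was the least abundant in all 8, from 2.56 ± 0.389 TPM in MDA-MB-231 7TGP-NEG in standard serum to 16.6 ± 1.64 TPM in MDA-MB-436 7TGP-NEG in low serum. NFKB2 thus made up 37.9% to 45.1% of the summed subunit TPM, and REL 0.737% to 4.37%.

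Between these extremes, RELA, RELB and NFKB1 kept the same order in every standard serum group of both lines. In low serum, only MDA-MB-231 7TGP-NEG departed from the order of the other groups. In low serum, RELB, the partner of p52 in the noncanonical branch, held 17.4% ± 1.31 (SD, n = 2) of the subunit TPM in MDA-MB-231 7TGP-NEG and 28.9% ± 0.827 in MDA-MB-436 7TGP-NEG. The RELA share was higher in MDA-MB-231 7TGP-NEG, at 21.4% ± 1.56, than in MDA-MB-436 7TGP-NEG, at 13.4% ± 0.159. RELA itself was at 33.6 ± 2.06 TPM in the former and 50.5 ± 2.98 TPM in the latter. The summed subunit TPM was 158 ± 1.87 and 378 ± 26.8. Within MDA-MB-231, the RELA share was lower in POS than in NEG, at 14.0% ± 1.04 in low serum. In standard serum the RELA share was 33.4% ± 0.509 in NEG and 23.9% ± 0.576 in POS. The RELB share was higher in POS, at 22.1% ± 0.154 in low serum, and at 18.1% ± 0.0518 against 15.4% ± 0.831 in standard serum. In MDA-MB-436 the RELB share was lower in POS, at 25.8% ± 0.0236 in low serum, and at 17.1% ± 2.33 against 20.8% ± 1.21 in standard serum, where the SD was widest. These shares are descriptions without a test.

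**Figure D1:**
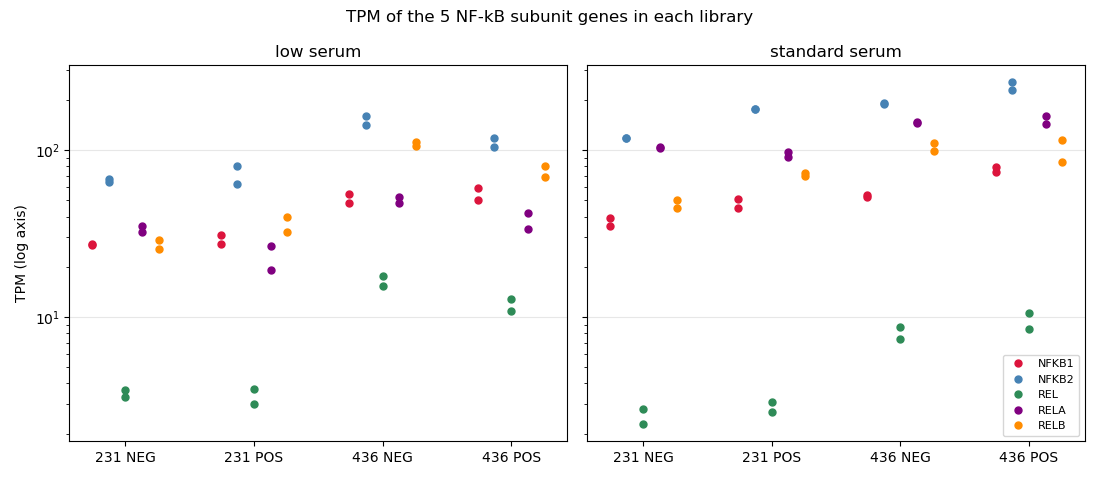
TPM (log axis) of the 5 subunit genes in each of the 16 libraries, by group, with low serum on the left and standard serum on the right; each point is 1 library. NFKB2 is at the top and REL at the bottom in all 8 groups, and RELA lies above RELB in every standard serum group but below it in low serum in 3 of the 4 groups.

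The question of the reporter comparison was how 7TGP-POS cells differ from 7TGP-NEG cells of the same line. In MDA-MB-231, most members rose in POS: BIRC3 and TNFAIP3 rose most, and NFKBIA, RELB, NFKB2 and NFKB1 rose in both serum conditions. RELA fell in low serum. Of the 10 members, 6 were higher and 2 lower in low serum, and 7 were higher and 0 lower in standard serum, by edgeR's quasi-likelihood test with an adjusted p under 0.05. Over all genes tested, 38.9% were called in low serum, 19% higher and 19.9% lower, and 33% in standard serum, 16.8% higher and 16.2% lower. Both POS replicates lay above both NEG replicates for 6 members and below for 2 in low serum, against 31.2% and 34.5% of all genes, and for 7 and 1 in standard serum, against 38.6% and 28.2%. The median log2 fold change was 0.31 over the members and -0.01 over all 16069 genes in low serum, and 0.46 over the members and 0 over all 15414 genes in standard serum. In bulk RNA, fewer cells of a type and less RNA per cell cannot be told apart.

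BIRC3 showed the largest change among the members. In low serum its level was 87.2 and 86.2 CPM in the NEG replicates and 239 and 248 CPM in the POS replicates. In standard serum the NEG replicates held 59.7 and 60.7 CPM and the POS replicates 206 and 227 CPM. The groups lay far apart in both conditions. The log2 fold change was 1.50 ± 0.053 (SE, adjusted p = 3.3e-25) in low serum and 1.79 ± 0.092 (SE, adjusted p = 8.06e-11) in standard serum, which is 2.83-fold and 3.46-fold.

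TNFAIP3, the A20 gene, was low in MDA-MB-231 7TGP-NEG and rose in POS. Its level was 16.9 and 17.4 CPM in the NEG replicates in low serum and 41.1 and 37.5 CPM in the POS replicates. In standard serum, 18.3 and 17.4 CPM were measured in NEG and 56.7 and 59.0 CPM in POS. Both POS replicates exceeded both NEG replicates by more than 2-fold in each serum condition, and the log2 fold change was 1.21 ± 0.064 (SE, adjusted p = 3.24e-19) in low serum and 1.64 ± 0.078 (SE, adjusted p = 1.61e-11) in standard serum. BIRC3 and TNFAIP3 were the only members called with a log2 fold change of 1 or more in size, 2 of 10 in each serum condition, against 5.9% of all genes in low serum and 7.69% in standard serum.

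NFKBIA, which encodes IκBα, rose by nearly the same amount in both conditions. Its NEG replicates held 138 and 149 CPM and its POS replicates 221 and 207 CPM in low serum, and 102 and 105 CPM against 164 and 159 CPM in standard serum. No POS replicate overlapped with a NEG replicate, and the log2 fold change was 0.59 ± 0.051 (SE, adjusted p = 1.16e-12) in low serum and 0.59 ± 0.071 (SE, adjusted p = 3.89e-06) in standard serum. NFKBIZ encodes IκBζ, an inducible nuclear IκB that modulates target gene choice, and it did not follow NFKBIA. Its level fell from 226 and 225 CPM in NEG to 182 and 172 CPM in POS in low serum, and the log2 fold change was -0.34 ± 0.049 (SE, adjusted p = 2.54e-07). In standard serum the groups overlapped, with 74.2 and 85.9 CPM in NEG and 73.1 and 91.0 CPM in POS, and the log2 fold change of -0.02 ± 0.092 was not called (adjusted p = 0.934). NFKBIZ overlaps NXPE3 on the same strand in Gencode v44, so its count is uncertain for reads in the shared stretch. REL likewise overlaps the snRNA gene RNU4-51P and a lncRNA gene on the same strand. NFKB1, RELA, TNFAIP3, TNFAIP2 and BIRC3 overlap noncoding genes on the opposite strand, and whether counting used strand is not given. The authors' counts used Gencode v19, whose overlaps were not read.

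Among the subunit genes, RELB rose most in low serum, and RELB and NFKB2 to the same rounded value in standard serum. The RELB level was 31.7 and 35.4 CPM in the NEG replicates and 52.9 and 47.6 CPM in the POS replicates in low serum, and 40.0 and 36.9 CPM against 58.8 and 57.4 CPM in standard serum. The POS replicates lay above the NEG replicates each time, with a log2 fold change of 0.59 ± 0.064 (SE, adjusted p = 3.48e-10) in low serum and 0.54 ± 0.13 (SE, adjusted p = 0.00728) in standard serum. NFKB2, the p100/p52 gene, held 118 and 120.3 CPM in NEG and 158 and 138 CPM in POS in low serum, and 139 and 144 CPM against 211 and 216 CPM in standard serum. It changed by 0.32 ± 0.052 (SE, adjusted p = 2.3e-06) in low serum and by 0.54 ± 0.072 (SE, adjusted p = 1.07e-05) in standard serum on the log2 scale. NFKB1, the p105/p50 gene, held 68.8 and 69.3 CPM in NEG and 84.3 and 84.0 CPM in POS in low serum, and 64.3 and 59.4 CPM against 84.7 and 76.4 CPM in standard serum. The groups of both genes did not overlap, and the log2 fold change of NFKB1 was 0.30 ± 0.053 (SE, adjusted p = 1.45e-05) and 0.33 ± 0.084 (SE, adjusted p = 0.00517). On the log2 scale of the deposited TPM, the low serum changes of NFKB1 and NFKB2 were 0.09 and 0.11 with a pseudocount of 1 and were not called by limma (adjusted p = 0.609 and 0.514), nor with a pseudocount of 0.1 (0.09 and 0.12, adjusted p = 0.586 and 0.479). On that scale the median over all genes in low serum lay at -0.13 with a pseudocount of 1, and 945 genes were called higher and 3486 lower, in place of 3060 and 3190. In standard serum, NFKB1 was not called without NEG replicate 2 (log2 fold change 0.26, adjusted p = 0.0945) or without POS replicate 1 (0.23, adjusted p = 0.0908), and RELB was not called without POS replicate 1 (0.50, adjusted p = 0.0552).

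Neither RELA nor REL was called higher in POS. RELA, which encodes the main transactivating subunit p65, was at 78.0 and 70.7 CPM in the NEG replicates and 63.8 and 51.1 CPM in the POS replicates in low serum, and the log2 fold change was -0.36 ± 0.078 (SE, adjusted p = 0.00134). In standard serum both POS replicates (142 and 134 CPM) also lay under both NEG replicates (149 and 152 CPM), but the log2 fold change of -0.18 ± 0.074 was not called (adjusted p = 0.0762). Each reporter comparison was refitted in 18 alternative ways, 10 with another setting and 8 with 1 library left out, and RELA was called in standard serum in 4 of them, including those without either replicate of MDA-MB-436 7TGP-POS (log2 fold change -0.18 both times, adjusted p = 0.0106 and 0.0104). REL overlapped between POS and NEG, with 16.7 and 15.1 CPM in NEG and 18.3 and 16.5 CPM in POS in low serum and 8.33 and 6.94 CPM and 8.09 and 9.42 CPM in standard serum. It did not pass the test in either condition, with log2 fold changes of 0.15 ± 0.079 in low serum (adjusted p = 0.151) and 0.14 ± 0.15 in standard serum (adjusted p = 0.527). TNFAIP2, a TNF-induced gene linked to membrane protrusions, was called only in standard serum. There its NEG replicates held 102 and 115 CPM and its POS replicates 139 and 155 CPM, a log2 fold change of 0.39 ± 0.081 (SE, adjusted p = 0.00108). In low serum it was 0.05 ± 0.054 (adjusted p = 0.47), and 0.15 (adjusted p = 0.0362) without POS replicate 2.

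**Figure D2:**
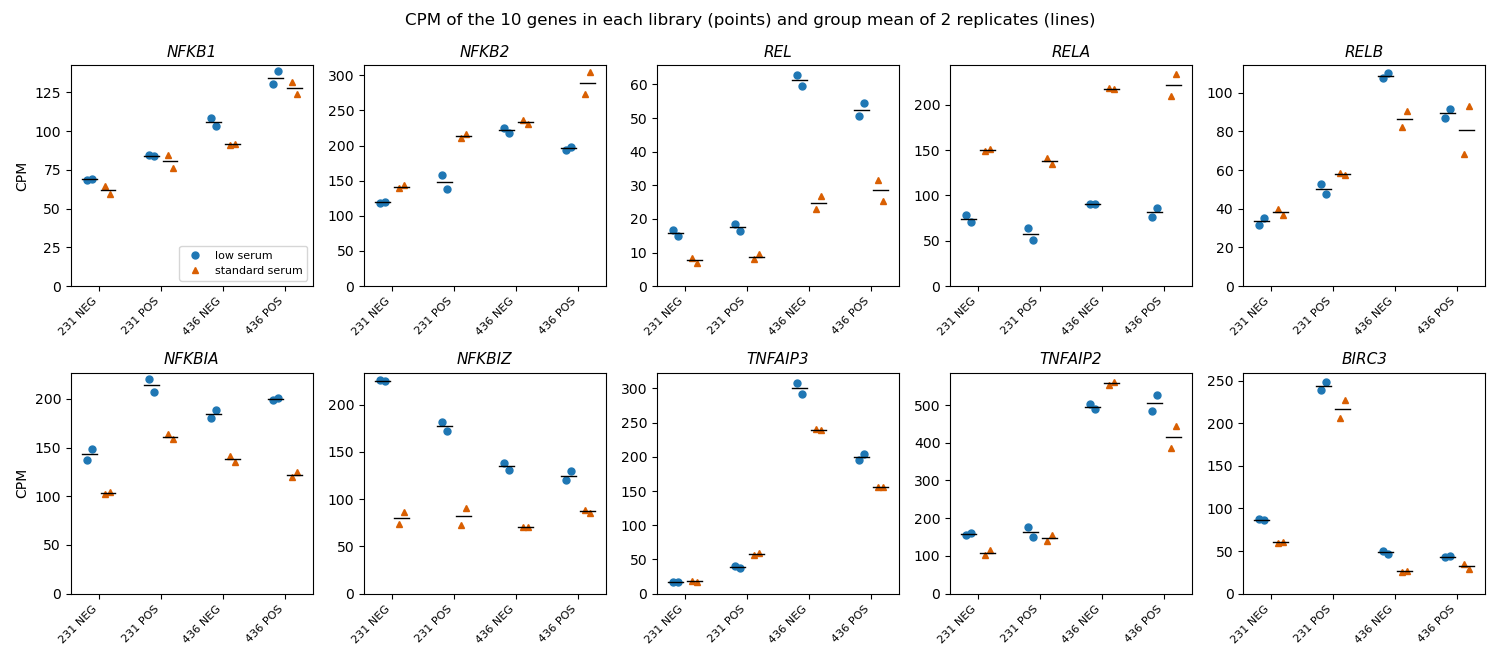
CPM of the 10 members in each library, by group (231, MDA-MB-231; 436, MDA-MB-436), with low serum as circles and standard serum as triangles; the black line is the mean of 2 replicates and each vertical axis starts at 0. BIRC3 and TNFAIP3 separate 231 POS from 231 NEG in both serum conditions, and TNFAIP3 lies between 156 and 308 CPM in the 436 groups, above every 231 library.

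In MDA-MB-436, no member was called with a log2 fold change of 1 or more in size, and TNFAIP3 changed in the opposite direction. TNFAIP3 fell in POS and NFKB1 rose in POS in both serum conditions. In low serum, 1 member was higher and 6 were lower (NFKB2, REL, RELB, NFKBIZ, TNFAIP3 and BIRC3), where 52% of all genes were called, 26.6% higher and 25.3% lower. In standard serum, 4 members were higher (NFKB1, NFKB2, NFKBIZ and BIRC3) and 3 lower (NFKBIA, TNFAIP3 and TNFAIP2), where 49.5% of all genes were called, 26.1% higher and 23.4% lower. Both POS replicates lay above both NEG replicates for 2 members and below for 7 in low serum, against 39.3% and 34.7% of all genes, and for 4 and 3 in standard serum, against 41.9% and 31.3%. The median log2 fold change over the members was -0.18 in low serum and 0.06 in standard serum, beside 0.01 and 0 over all genes. Of all genes, 10.5% in low serum and 12.5% in standard serum were called with a log2 fold change of 1 or more in size.

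TNFAIP3 was the member that changed most in MDA-MB-436. Its level was 308 and 292 CPM in the NEG replicates and 195 and 204 CPM in the POS replicates in low serum. In standard serum it was 241 and 239 CPM in NEG and 156 and 156 CPM in POS. The groups did not overlap, and the log2 fold change was -0.60 ± 0.049 (SE, adjusted p = 7.3e-14) in low serum and -0.68 ± 0.070 (SE, adjusted p = 3.02e-07) in standard serum. Even after this fall, MDA-MB-436 7TGP-POS held more TNFAIP3 RNA than MDA-MB-231 7TGP-POS.

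NFKB1 rose by 0.33 ± 0.051 (SE, adjusted p = 4.69e-07) in low serum and by 0.43 ± 0.082 (SE, adjusted p = 0.00031) in standard serum on the log2 scale, from 108 and 103 CPM in the NEG replicates to 131 and 138 CPM in the POS replicates in low serum. On the deposited TPM, the low serum change was 0.09 with a pseudocount of either 1 or 0.1 and was not called by limma (adjusted p = 0.578 and 0.58). The median over all genes there lay at -0.155 with a pseudocount of 1, and 1650 genes were called higher and 5492 lower, in place of 4277 and 4071. RELB fell in low serum, from 108 and 110.3 CPM to 87.0 and 91.7 CPM, a log2 fold change of -0.30 ± 0.057 (SE, adjusted p = 2.16e-05). In standard serum the RELB groups overlapped, with 82.6 and 90.7 CPM in NEG and 68.4 and 93.3 CPM in POS. Its log2 fold change there was -0.16 ± 0.12 (adjusted p = 0.311), and -0.39 (adjusted p = 0.000785) without POS replicate 2.

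TNFAIP2 was called in standard serum only. There it was at 554 and 562 CPM in the NEG replicates and 386 and 444 CPM in the POS replicates, a log2 fold change of -0.49 ± 0.080 (SE, adjusted p = 5.96e-05). In low serum its groups overlapped, with 502 and 488 CPM in NEG and 485 and 525 CPM in POS. NFKBIA fell in standard serum, from 141 and 135 CPM in NEG to 119 and 125 CPM in POS, with a log2 fold change of -0.23 ± 0.071 (SE, adjusted p = 0.0104), whereas its low serum change of 0.10 ± 0.050 was not called (adjusted p = 0.088). On log2(TPM + 1) the standard serum change of NFKBIA was -0.14 and was not called (limma, adjusted p = 0.063). REL, the c-Rel gene, fell in low serum, with a log2 fold change of -0.24 ± 0.061 (SE, adjusted p = 0.00121), and was 0.15 ± 0.13 in standard serum (adjusted p = 0.369). RELA was not called in low serum at -0.17 ± 0.076 (adjusted p = 0.0732), but 13 of 18 alternative fits called it lower, 8 of the 10 with another setting and 5 of the 8 that left out 1 library. Its log2 fold change was -0.21 (adjusted p = 0.0152) with DESeq2's size factors and -0.41 (adjusted p = 0.0318) by limma on log2(TPM + 1), and from -0.24 to -0.18 (adjusted p from 0.00552 to 0.0425) without any 1 of the 4 MDA-MB-231 libraries or without POS replicate 2. RELA was -0.03 ± 0.073 in standard serum (adjusted p = 0.749).

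NFKB2, NFKBIZ and BIRC3 had opposite signs in the serum conditions. BIRC3 held 50.6 and 46.4 CPM in NEG and 42.5 and 43.7 CPM in POS in low serum, and 25.9 and 26.2 CPM and 35.2 and 28.6 CPM in standard serum. NFKB2 held 226 and 218 CPM and 194 and 198 CPM in low serum, and 237 and 230.0 CPM and 273 and 305 CPM in standard serum. NFKBIZ held 139 and 131 CPM and 119.9 and 130.0 CPM in low serum, and 70.6 and 70.8 CPM and 88.5 and 85.4 CPM in standard serum. In each of these the NEG replicates are given first, and POS lay under NEG in low serum and over NEG in standard serum with no overlap. The log2 fold change of NFKB2 was -0.19 ± 0.050 (SE, adjusted p = 0.00157) in low serum and 0.25 ± 0.071 (SE, adjusted p = 0.0071) in standard serum on the log2 scale. NFKBIZ was -0.12 ± 0.050 (SE, adjusted p = 0.0387) and 0.24 ± 0.092 (SE, adjusted p = 0.0386), and BIRC3 was -0.18 ± 0.059 (SE, adjusted p = 0.00746) and 0.24 ± 0.095 (SE, adjusted p = 0.0437). Whether the serum conditions differ was not tested. Several of these calls depended on the setting or on single libraries. The standard serum rise of BIRC3 was called in only 5 of 18 alternative fits, and that of NFKBIZ in 10 of 18. With DESeq2's size factors neither was called (0.22 and 0.22, adjusted p = 0.0654 and 0.0587). In low serum, NFKBIZ was called in 12 of 18. In low serum, BIRC3 was not called without NEG replicate 1 (-0.17, adjusted p = 0.0582), and NFKBIZ not without NEG replicate 1 (-0.13, adjusted p = 0.103), NEG replicate 2 (-0.15, adjusted p = 0.0561), POS replicate 1 (-0.09, adjusted p = 0.276) or MDA-MB-231 7TGP-NEG replicate 1 (-0.13, adjusted p = 0.052). In standard serum, the members called numbered 4 instead of 7 without NEG replicate 1 and also without NEG replicate 2: NFKBIZ and BIRC3 were lost each time, NFKBIA (-0.21, adjusted p = 0.0714) with the former and NFKB2 (0.22, adjusted p = 0.0824) with the latter. BIRC3 lost its standard serum call without any 1 of the 8 libraries except POS replicate 2, most of all without POS replicate 1 (0.05, adjusted p = 0.616), and NFKBIZ was 0.19 (adjusted p = 0.298) without POS replicate 1 and 0.27 (adjusted p = 0.124) without POS replicate 2.

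**Figure D3:**
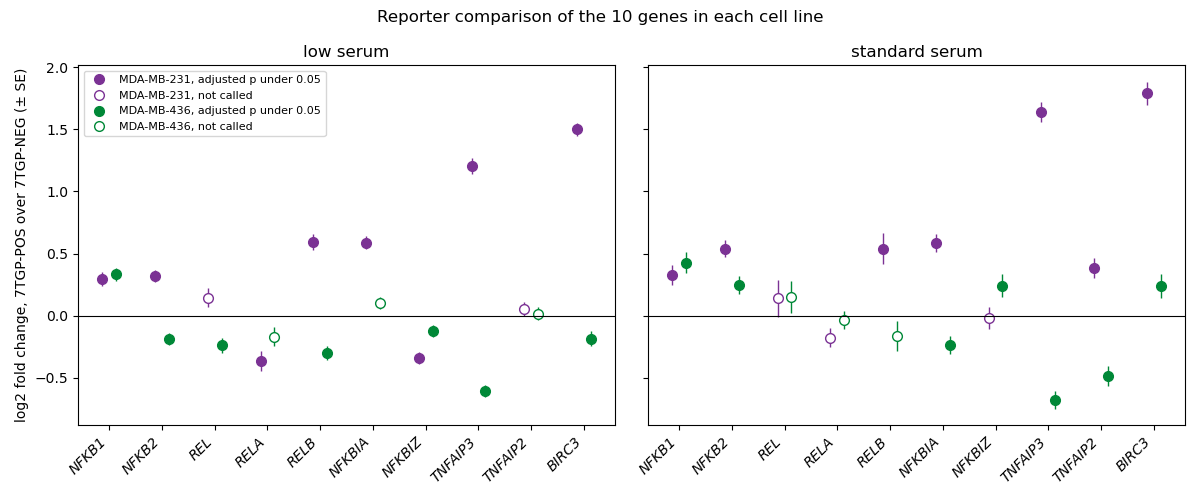
Log2 fold change of 7TGP-POS over 7TGP-NEG for the 10 members in MDA-MB-231 (purple) and MDA-MB-436 (green), with low serum on the left and standard serum on the right; bars are the SE of edgeR's fit, filled points have an adjusted p under 0.05 and open points do not. TNFAIP3 lies above 1 in MDA-MB-231 and at -0.60 or below in MDA-MB-436 in both conditions, and NFKB1 lies between 0.30 and 0.43 in both lines.

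Whether the reporter comparison differs between the cell lines was tested as an interaction, the MDA-MB-231 log2 fold change minus that of MDA-MB-436, in the same model. It was called for 7 members in low serum, of which 6 were positive, and for 6 members in standard serum, all positive. Over all genes, 45.7% (21.1% positive) were called in low serum, compared with 41.2% (18.8% positive) in standard serum. The interactions share their libraries with both reporter comparisons. TNFAIP3 had the largest, at 1.81 ± 0.080 (SE, adjusted p = 7.52e-22) in low serum and 2.32 ± 0.10 (SE, adjusted p = 7.76e-12) in standard serum. BIRC3 followed with 1.68 ± 0.078 (SE, adjusted p = 4.21e-21) and 1.55 ± 0.13 (SE, adjusted p = 5.1e-08). These were the only 2 members past an absolute log2 value of 1, against 11.7% of all genes in low serum and 13.8% in standard serum.

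RELB differed between the lines by 0.89 ± 0.085 (SE, adjusted p = 1.31e-11) in low serum and 0.70 ± 0.17 (SE, adjusted p = 0.00854) in standard serum, and NFKBIA by 0.49 ± 0.072 (SE, adjusted p = 3.17e-07) and 0.82 ± 0.10 (SE, adjusted p = 3.46e-06). For NFKB2 the difference was 0.51 ± 0.072 (SE, adjusted p = 1.45e-07) and 0.29 ± 0.10 (SE, adjusted p = 0.0273), and the standard serum value was called in 9 of 17 alternative fits. It lost its call in 3 with another setting, with 0.23 (limma, adjusted p = 0.0533) on log2(TPM + 1), and in 5 of the 8 that left out 1 library, with values from 0.27 to 0.32 and adjusted p from 0.055 (without MDA-MB-231 7TGP-POS replicate 1) to 0.108 (without MDA-MB-231 7TGP-NEG replicate 1). REL was called in low serum only, at 0.38 ± 0.10 (SE, adjusted p = 0.00156), and TNFAIP2 in standard serum only, at 0.87 ± 0.11 (SE, adjusted p = 7.16e-06). On log2(TPM + 1) the REL difference in low serum was 0.41 and was not called (limma-trend, adjusted p = 0.144). NFKBIZ was the negative one, at -0.22 ± 0.070 (SE, adjusted p = 0.00939) in low serum, and was called in 8 of 17 alternative fits. With DESeq2's size factors it was -0.17 (adjusted p = 0.0538), and it lost its call as well without either replicate of MDA-MB-231 7TGP-NEG (-0.21 and -0.18, adjusted p = 0.0545 and 0.0872), without replicate 2 of MDA-MB-436 7TGP-NEG (-0.19, adjusted p = 0.0743) and without replicate 2 of MDA-MB-436 7TGP-POS (-0.18, adjusted p = 0.0699). In standard serum NFKBIZ was -0.26 ± 0.13 (adjusted p = 0.126), and -0.40 (adjusted p = 0.025) without MDA-MB-231 7TGP-POS replicate 2.

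NFKB1 rose in both lines, and its difference between them was -0.04 ± 0.073 in low serum (adjusted p = 0.71) and -0.10 ± 0.12 in standard serum (adjusted p = 0.551). RELA, at -0.19 ± 0.11 and -0.14 ± 0.10, did not pass the test either (adjusted p = 0.169 and 0.296), and was called in low serum without MDA-MB-231 7TGP-POS replicate 1 (-0.32, adjusted p = 0.00346) or MDA-MB-436 7TGP-POS replicate 1 (-0.25, adjusted p = 0.0432). Counting genes called in both lines, TNFAIP3, BIRC3, NFKB2 and RELB rose in MDA-MB-231 and fell in MDA-MB-436 in low serum, 4 of 10 members against 5.84% of all genes. TNFAIP3, TNFAIP2 and NFKBIA did so in standard serum, 3 of 10 against 4.56%. NFKB1 alone rose in both lines in low serum, 1 of 10 against 6.07%, and NFKB1, NFKB2 and BIRC3 did in standard serum, 3 of 10 against 5.09%. That count includes the MDA-MB-436 call of BIRC3, which was lost in 13 of 18 alternative fits.

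The reporter-negative sublines of the lines were compared next. All 10 members differed between the NEG sublines of MDA-MB-231 and MDA-MB-436 in both serum conditions, 8 lower and 2 higher in MDA-MB-231. So did 79.2% of all genes in low serum and 78.8% in standard serum, which makes a call of this kind the usual outcome. Cell line and culture medium cannot be told apart here, since the methods give DMEM/F-12 for one line and RPMI-1640 for the other, whereas the labels name DMEM for all. With a log2 fold change of 1 or more in size, 4 members were called in each serum condition, against 41.9% and 46.7% of all genes. These NEG libraries are also the controls of the reporter comparisons.

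TNFAIP3 stood out by size. It was 16.3-fold lower in MDA-MB-231 in low serum and 11.6-fold lower in standard serum, with log2 differences of -4.03 ± 0.060 (SE, adjusted p = 6.72e-40) and -3.54 ± 0.080 (SE, adjusted p = 1.65e-17). REL followed in low serum at -1.84 ± 0.070 (SE, adjusted p = 1.27e-25), with 16.7 and 15.1 CPM in the MDA-MB-231 replicates and 62.9 and 59.5 CPM in those of MDA-MB-436. In standard serum REL was at -1.49 ± 0.14 (SE, adjusted p = 1.98e-07). TNFAIP2 differed by -1.55 ± 0.054 (SE, adjusted p = 1.67e-26) and -2.16 ± 0.084 (SE, adjusted p = 3.4e-14), and RELB by -1.60 ± 0.061 (SE, adjusted p = 1.97e-25) and -0.96 ± 0.13 (SE, adjusted p = 3.3e-05).

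Only BIRC3 and NFKBIZ were higher in MDA-MB-231 7TGP-NEG. BIRC3 differed by 0.94 ± 0.056 (SE, adjusted p = 6.41e-19) in low serum and 1.42 ± 0.095 (SE, adjusted p = 1.65e-10) in standard serum, and NFKBIZ by 0.85 ± 0.050 (SE, adjusted p = 4.22e-19) and 0.38 ± 0.093 (SE, adjusted p = 0.00115). The standard serum difference of NFKBIZ was 0.21 on log2(TPM + 1) and was not called there (limma, adjusted p = 0.084). The rest, NFKB1, NFKB2, RELA and NFKBIA, lay between -0.79 and -0.18. RELA in low serum and NFKBIA in standard serum also lost calls. RELA was at -0.18 ± 0.076 (SE, adjusted p = 0.0364) and lost its call without MDA-MB-231 7TGP-NEG replicate 2 (-0.13, adjusted p = 0.234) or without either replicate of MDA-MB-436 7TGP-NEG (-0.21 and -0.17, adjusted p = 0.0954 and 0.123). NFKBIA was at -0.21 ± 0.071 (SE, adjusted p = 0.0113) and lost its call without either replicate of MDA-MB-231 7TGP-NEG or MDA-MB-436 7TGP-NEG replicate 1 (-0.21, -0.22 and -0.19, adjusted p = 0.0726, 0.0613 and 0.0621), and with all biotypes tested (-0.17, adjusted p = 0.0656).

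BIRC3 lies on chromosome 11 (102188215 to 102210134 on hg19, plus strand), next to BIRC2 and a cluster of MMP genes, and most of the tested genes around it also had a log2 fold change above 0. Over the 50 nearest tested genes, the median log2 fold change of POS over NEG was 0.35 in low serum and 0.46 in standard serum in MDA-MB-231, and 0.45 and 0.47 in MDA-MB-436. Of these 50 neighbours, 38 and 37 were above 0 in MDA-MB-231, where 47.8% and 48.7% of all genes were, in low and standard serum, and 43 and 37 in MDA-MB-436, against 51.3% and 50.4%. These are descriptions without a test, and some neighbours lay far below 0, such as GPR83 at -0.86 in MDA-MB-231 in low serum. BIRC2, which encodes the related ligase cIAP1, rose in both lines, by 0.67 ± 0.052 (SE, adjusted p = 3.97e-14) in MDA-MB-231 and 0.50 ± 0.058 (SE, adjusted p = 1.4e-09) in MDA-MB-436 in low serum. In standard serum BIRC2 rose by 0.60 ± 0.074 (SE, adjusted p = 4.68e-06) and 0.79 ± 0.076 (SE, adjusted p = 1.26e-07). The log2 fold change of BIRC3 minus that median was 1.15 and 1.33 in MDA-MB-231 and -0.63 and -0.23 in MDA-MB-436. The part of the region in the BIRC3 result was not tested further. For TNFAIP3, the median of the 50 nearest tested genes in MDA-MB-231 was 0.24 in low serum and 0.0043 in standard serum. Of these neighbours, 36 and 26 were above 0. The log2 fold change of TNFAIP3 minus the median of its neighbours was 0.97 and 1.63 in MDA-MB-231. In MDA-MB-436 it was -0.64 and -0.76, and these values are also without a test.

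**Figure D4:**
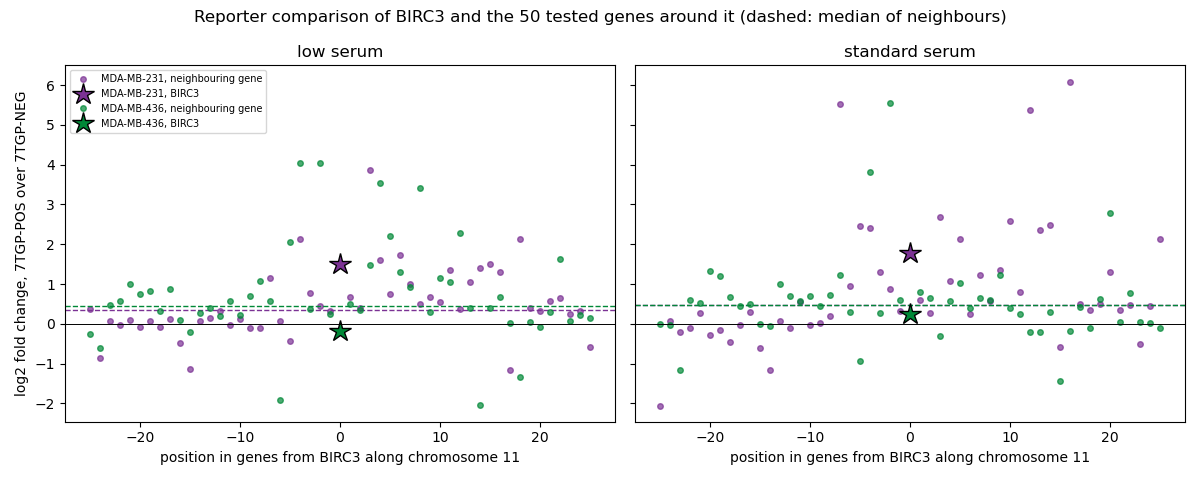
Log2 fold change of 7TGP-POS over 7TGP-NEG for BIRC3 (stars) and the 50 tested genes around it (points) by gene order on chromosome 11, in MDA-MB-231 (purple) and MDA-MB-436 (green), with low serum on the left and standard serum on the right; dashed lines are the medians of the neighbours. The BIRC3 star lies above both dashed lines in MDA-MB-231 and below them in MDA-MB-436, and the medians lie between 0.35 and 0.47.

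Other inhibitors of the pathway were examined as a list of 14 negative regulators. In MDA-MB-231, 6 were higher and 2 lower in POS in low serum, and 6 higher and 3 lower in standard serum, where 19% and 19.9% of all genes were higher and lower with low serum, and 16.8% and 16.2% with standard. In MDA-MB-436, 1 was higher and 8 lower in low serum, and 3 higher and 9 lower in standard serum, against 26.6% and 25.3% of all genes with low serum, and 26.1% and 23.4% with standard. The medians were 0.20 and 0.08 in MDA-MB-231 and -0.29 and -0.62 in MDA-MB-436. IRAK3, OTULIN, TNIP1, TNIP3 and ZC3H12A rose in MDA-MB-231 and fell in MDA-MB-436 in both serum conditions, as TNFAIP3 did. These are 5 of 14, against 5.84% of all genes in low serum and 4.56% in standard serum. OTULIN was the least secure of them in MDA-MB-231. Its standard serum value of 0.24 ± 0.089 (SE, adjusted p = 0.0439) was called in 6 of 18 alternative fits. It lost its call with DESeq2's size factors (0.23, adjusted p = 0.0544), and without any 1 of the 4 MDA-MB-231 libraries or without either replicate of MDA-MB-436 7TGP-NEG (0.21 to 0.27, adjusted p from 0.07 to 0.209), and its low serum value of 0.40 ± 0.059 (SE, adjusted p = 3.52e-07) was 0.18 (adjusted p = 0.276) on log2(TPM + 1) by limma. The 3 higher genes of MDA-MB-436 in standard serum became 1 without either NEG replicate or without POS replicate 1, and the 9 lower genes became 9 or 10.

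TNIP1 and TNIP3 encode ABIN proteins, which bind A20. TNIP3 was low in MDA-MB-231, at 0.554 and 0.601 CPM in the NEG replicates and 2.47 and 2.22 CPM in the POS replicates in low serum, and went from 13.6 and 14.0 CPM to 4.17 and 3.62 CPM in MDA-MB-436. The log2 fold change was 2.03 ± 0.26 (SE, adjusted p = 1.48e-08) in the former and -1.83 ± 0.13 (SE, adjusted p = 7.14e-16) in the latter, and 2.06 ± 0.29 (SE, adjusted p = 2.3e-05) and -2.07 ± 0.16 (SE, adjusted p = 1.02e-08) in standard serum. ZC3H12A, which encodes the ribonuclease Regnase-1, changed by 1.04 ± 0.061 (SE, adjusted p = 1.08e-17) in MDA-MB-231 and -0.24 ± 0.053 (SE, adjusted p = 0.00017) in MDA-MB-436 in low serum. ZC3H12A in standard serum was at 1.24 ± 0.086 (SE, adjusted p = 2.97e-09) and -0.63 ± 0.079 (SE, adjusted p = 3.05e-06). OTULIN, which encodes a deubiquitinase of linear ubiquitin chains, fell in MDA-MB-436, with log2 fold changes of -1.64 ± 0.054 (SE, adjusted p = 1.39e-26) and -1.46 ± 0.086 (SE, adjusted p = 1.71e-10). The genes around OTULIN on its chromosome were not examined, and the part of its region in this fall was not tested. IRAK3, another of the listed negative regulators, rose in MDA-MB-231 by 1.00 ± 0.073 (SE, adjusted p = 8.57e-15) and 0.69 ± 0.092 (SE, adjusted p = 1.18e-05).

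Genes acting upstream were examined next. Of the 4 other IκB family genes, NFKBIB alone was higher in MDA-MB-231 7TGP-POS, by 0.28 ± 0.086 (SE, adjusted p = 0.00893) in low serum and 0.40 ± 0.13 (SE, adjusted p = 0.0347) in standard serum, and none was called lower. BCL3 was at -0.32 ± 0.13 in low serum (adjusted p = 0.0858), and 9 of 18 alternative fits called it lower, with -0.31 (adjusted p = 0.0312) by DESeq2's Wald test and -0.53 (adjusted p = 2.21e-05) without POS replicate 1. NFKBIB lost its low serum call without NEG replicate 1 (0.18, adjusted p = 0.212) and on log2(TPM + 1), where it was 0.08 (limma, adjusted p = 0.708). In standard serum it lost its call on the TPM scales and without any 1 of the 4 MDA-MB-231 libraries (0.35 to 0.45, adjusted p from 0.0742 to 0.183). In MDA-MB-436, NFKBIE and BCL3 were lower in low serum, against 25.3% of all genes, and NFKBIE, BCL3 and NFKBID in standard serum, against 23.4%. BCL3, an IκB protein that can activate with p50 or p52, had a log2 fold change of -0.89 ± 0.11 (SE, adjusted p = 4.84e-06) there and -0.49 ± 0.12 (SE, adjusted p = 0.00918) in low serum, where it was -0.46 (adjusted p = 0.0529) without NEG replicate 2.

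The IκB kinase and NIK module was represented by 7 tested genes. Of all genes, 19% were called higher and 19.9% lower in MDA-MB-231 with low serum, and 16.8% and 16.2% with standard. In MDA-MB-231, BIRC2 and TRAF3 were higher in both conditions, while IKBKB and MAP3K14 were lower in low serum and IKBKB, MAP3K14 and TRAF2 in standard serum. None of these 3 was called in standard serum without NEG replicate 2, without POS replicate 1 or on the TPM scales. The low serum call of MAP3K14 was lost without NEG replicate 1 (-0.22, adjusted p = 0.062) and without POS replicate 2 (-0.16, adjusted p = 0.131). TRAF3, a brake on NIK, changed by 0.48 ± 0.056 (SE, adjusted p = 1.81e-09) and 0.45 ± 0.077 (SE, adjusted p = 0.000147), and its low serum change on log2(TPM + 1) was 0.27 (limma, adjusted p = 0.11). In MDA-MB-436, 3 genes were higher (BIRC2, IKBKB and CHUK) and 0 lower in both conditions. The shares of all genes higher and lower in this line were 26.6% and 25.3% with low serum, and 26.1% and 23.4% with standard. IKBKB was called in 11 of 18 alternative fits in each condition, and CHUK in 7 of 18 in low serum. In standard serum, IKBKB lost its call with DESeq2's size factors (0.21, adjusted p = 0.0505) and without any 1 of the 4 MDA-MB-436 libraries (0.22 to 0.23, adjusted p from 0.067 to 0.16). In low serum only BIRC2 remained called without either NEG replicate, and on the TPM scale, whose median lay lower, 0 were called higher and 2 lower.

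Of 15 receptor-proximal adaptors, 3 were higher and 4 lower in MDA-MB-231 in low serum, and 6 higher and 2 lower in standard serum, where 2 were higher without either NEG replicate. Those low serum counts are near the share of all genes, 19% higher and 19.9% lower, beside 16.8% and 16.2% in standard serum. In MDA-MB-436, 2 were higher and 5 lower in low serum, and 2 higher and 8 lower in standard serum, where 0 were higher without either NEG replicate or without POS replicate 1, against 26.6% and 25.3% of all genes with low serum, and 26.1% and 23.4% with standard. TRAF1, an NF-κB-induced adaptor, was at 40.2 and 41.0 CPM in MDA-MB-231 7TGP-NEG and 62.2 and 61.0 CPM in POS in low serum, and at 53.1 and 52.8 CPM and 21.2 and 23.6 CPM in MDA-MB-436. The lines moved in opposite directions, with log2 fold changes of 0.61 ± 0.060 (SE, adjusted p = 4.05e-11) and -1.26 ± 0.065 (SE, adjusted p = 5.55e-20). TRAF1 in standard serum was at 0.87 ± 0.079 (SE, adjusted p = 1.3e-07) and -0.37 ± 0.078 (SE, adjusted p = 0.000695).

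Downstream, 27 genes known as NF-κB targets in inflammation and survival were listed, and 25 were tested. In MDA-MB-231 7TGP-POS, 18 were higher and 2 lower in low serum, and 17 higher and 2 lower in standard serum, with medians of 1.20 and 1.65, against 19% and 19.9% of all genes with low serum, and 16.8% and 16.2% with standard. In MDA-MB-436, 7 were higher and 8 lower in low serum and 12 higher and 4 lower in standard serum, with medians of -0.07 and 0.28. Of all genes, 26.6% were higher and 25.3% lower in low serum, near the shares of the list, and 26.1% and 23.4% in standard serum. On the TPM scale the MDA-MB-436 low serum counts were 3 to 4 higher and 13 lower. The list was chosen with results of these data known, so its direction is not independent evidence.

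The chemokine gene CXCL8 went from 53.8 and 51.6 CPM in MDA-MB-231 7TGP-NEG to 644 and 729 CPM in POS in low serum, and from 73.4 and 72.7 CPM to 197 and 208 CPM in MDA-MB-436. Both lines moved in the same direction here, with log2 fold changes of 3.71 ± 0.064 (SE, adjusted p = 4.72e-27) and 1.46 ± 0.060 (SE, adjusted p = 3.14e-18). CXCL1, a related chemokine gene, rose by 3.26 ± 0.060 (SE, adjusted p = 1.04e-34) in MDA-MB-231 and 1.40 ± 0.054 (SE, adjusted p = 3.98e-24) in MDA-MB-436 in low serum, though its count is uncertain for reads shared with the closely similar CXCL2 and CXCL3. IL1B, which encodes the cytokine IL-1β, rose in MDA-MB-231 by 4.05 ± 0.10 (SE, adjusted p = 6.26e-28) and 4.10 ± 0.10 (SE, adjusted p = 1.75e-15), and in MDA-MB-436 by 0.21 ± 0.064 (SE, adjusted p = 0.00537) and 1.28 ± 0.083 (SE, adjusted p = 5.89e-10). The small MDA-MB-436 change of IL1B in low serum was 0.17 (adjusted p = 0.13) without NEG replicate 1 and -0.04 (limma, adjusted p = 0.871) on log2(TPM + 1). Opposite directions were seen for CCL20, a chemokine gene, at 1.20 ± 0.28 (SE, adjusted p = 0.000474) in MDA-MB-231 and -1.30 ± 0.083 (SE, adjusted p = 5.55e-17) in MDA-MB-436 in low serum, and at 1.68 ± 0.20 (SE, adjusted p = 2.54e-06) and -1.40 ± 0.11 (SE, adjusted p = 1.43e-08) in standard serum. ICAM1, an adhesion molecule gene, and PTGS2, which encodes COX-2, were split in the same way in standard serum: ICAM1 was 0.82 ± 0.076 (SE, adjusted p = 1.47e-07) against -0.27 ± 0.076 (SE, adjusted p = 0.00592), and PTGS2 3.37 ± 0.085 (SE, adjusted p = 2.45e-15) against -1.12 ± 0.093 (SE, adjusted p = 1.87e-08). The ICAM1 value of MDA-MB-436 was -0.18 (limma, adjusted p = 0.0634) on log2(TPM + 1). BCL2L1, the survival gene for BCL-XL, fell in MDA-MB-231, with log2 fold changes of -0.60 ± 0.050 (SE, adjusted p = 3.56e-13) and -0.72 ± 0.073 (SE, adjusted p = 4.22e-07). The cytokine gene TNF held 6 counts or fewer in every library, and no fold change is given for it.

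**Figure D5:**
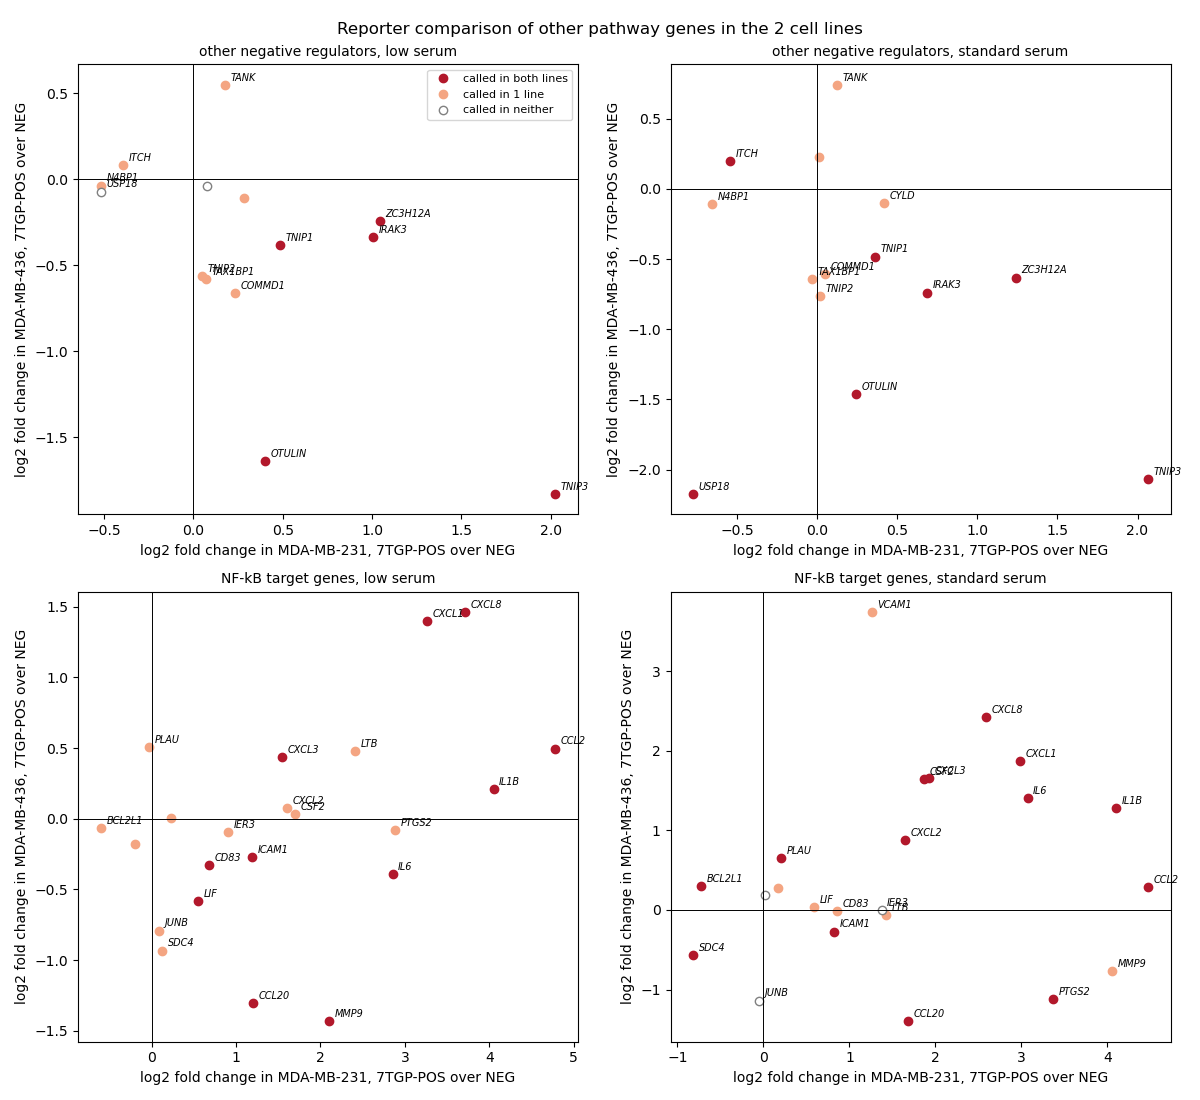
Log2 fold change of 7TGP-POS over 7TGP-NEG in MDA-MB-231 (horizontal) against MDA-MB-436 (vertical) for the negative regulators (top, 14 genes) and the NF-κB targets (bottom, 22 genes in low serum and 23 in standard serum, leaving out genes with 3 counts or fewer in both libraries of a group); dark points have an adjusted p under 0.05 in both lines, light points in 1 line and open points in neither. TNIP3, OTULIN, ZC3H12A, IRAK3 and TNIP1 lie in the lower right quadrant of both top panels, while CXCL8, CXCL1 and IL1B lie in the upper right of both bottom panels.

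The genes whose levels followed each member most closely were found by Pearson's r of log2(CPM + 1) over the 16 libraries, after the mean of each serum condition was subtracted, among 12492 genes. The libraries fall into 4 groups that share line and reporter state, so r mostly reflects group means and is given as a description. For TNFAIP3 the closest were LONRF3 (0.993), POGK (0.992) and MCOLN2 (0.99), and for BIRC3 they were CD33 (0.992), PHETA2 (0.991) and LACC1 (0.989). RELB was the one member whose closest gene was another member, TNFAIP3 (0.979). For NFKB2 they were CCDC86 (0.979), AMMECR1 (0.976) and TRAF3 (0.973). Between members, BIRC3 and RELA ran against each other (-0.895), as did NFKBIZ and RELB (-0.759), while NFKB2 and RELB ran together (0.935).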

How the data were processed

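RNA-Seq reads of 16 libraries had been cleared of ribosomal RNA with Bowtie and aligned by the authors with STAR to hg19 with Gencode v19 annotation (version 2.6.1a in the submitters' processing notes). The deposited tables held raw read counts per gene and TPM, which the authors had scaled to gene length and library. How TPM was computed and whether counting used strand are not given in the sources used here. Symbols and hg19 positions came from the GRCh37 version of Gencode v44, in which 55538 of 57820 gene IDs were matched.

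Counts were analysed with edgeR 4.0.16 in R 4.3.3. Within each serum condition, protein-coding genes that reached 10 counts in total over its 8 libraries entered 1 model of 4 groups, with TMM scaling and the robust quasi-likelihood test, which was tested on simulated data. p-values were adjusted by Benjamini-Hochberg over all genes tested. CPM are counts scaled by each library's total, and SE is the size of a log2 fold change over the root of its F. Alternatives were DESeq2 1.42.0, limma 3.58.1 on log2(TPM + 1) and log2(TPM + 0.1), other filters, a replicate block, and leaving out each library. Library totals of 27918418 to 46044073 counts and 2 replicates per group set the precision, and p-values measure the spread between replicates of 1 subline. RNA of the members was followed in all groups. Genes of other lists were named where they were among the 4 with the smallest adjusted p in a list, direction and comparison. The members and lists were chosen with earlier results of these data known. Some background genes are not reported here.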

Additional observations from a re-analysis of the deposited data

Results flagged for a closer look

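The interaction was called by edgeR's quasi-likelihood test for 13 of the 20 member results, so that the reporter difference of MDA-MB-231 differed from that of MDA-MB-436. In low serum the interaction on the log2 scale was 1.81 for TNFAIP3, 1.68 for BIRC3, 0.89 for RELB, 0.51 for NFKB2, 0.49 for NFKBIA, 0.38 for REL and -0.22 for NFKBIZ. In standard serum it was 2.32 for TNFAIP3, 1.55 for BIRC3, 0.87 for TNFAIP2, 0.82 for NFKBIA, 0.70 for RELB and 0.29 for NFKB2. TNFAIP3 was the 1 member called in opposite directions in the lines in both serum conditions. The groups of 2 libraries were too small for a check for single outlying libraries.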

How the results depend on the processing

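Of 80 member results, 62 were called. In the same comparisons, 33% to 79.2% of all genes were called. Under other settings of the count or TPM analysis, 735 comparisons with these results were unchanged in call and direction, 33 lost a call and 12 gained one; with 1 library left out, 592 were unchanged, 36 lost a call and 12 gained one. No called member changed direction in these fits.

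The deposited TPM left 1 member in place of 2 past an absolute log2 fold change of 1 in MDA-MB-231 in low serum, with either pseudocount: TNFAIP3 was 0.92 and 0.99, and the shift of the all-gene median there was -0.13 and -0.194. In the comparison of the NEG sublines that shift was -0.195 and -0.334 in low serum, and with standard serum -0.124 and -0.225. With 1 library left out, members called numbered 8 to 9 and 5 to 8 in MDA-MB-231 and 5 to 8 and 4 to 7 in MDA-MB-436, in low and standard serum, 6 to 8 and 5 to 7 for the interaction, and 9 to 10 for the NEG sublines in both. Subtracting the median of 50 neighbouring genes, a description without a test, turned the sign of REL in MDA-MB-436 in low serum (0.044) and of its interaction (-0.022), of RELA between the NEG sublines (0.048 in low and 0.0017 in standard serum), and of BIRC3 between the NEG sublines in low serum (-0.39) and in MDA-MB-436 in standard serum (-0.23). For list genes the same settings were chosen after seeing the data: on the TPM scales CHUK (-0.089 and -0.093), IKBKB (-0.052 and -0.057) and IL1B (-0.0355 and -0.0361) turned sign in MDA-MB-436 in low serum without a call. The causes were not tested.

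With a replicate block, members called numbered 8, 7, 7 and 10 (low serum) or 7, 7, 6 and 10 (standard serum) for MDA-MB-231, MDA-MB-436, the interaction and the NEG sublines. Whether replicates of the same number were handled together is not given in the sources used here. The differences between replicates 1 and 2 in POS and in NEG correlated at -0.0012 in MDA-MB-231 and -0.092 in MDA-MB-436 in low serum. In standard serum they correlated at 0.159 and 0.135. The block ended the call of NFKBIZ (-0.12, adjusted p = 0.0601) and added that of RELA (-0.17, adjusted p = 0.0404) in MDA-MB-436 in low serum. With 2 replicates per group, 1 subline pair per line, and serum, days and library preparation varied together, a value that was not called does not show that levels were equal.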
